A study of Mus musculus with 16 samples.

Results

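The comparison set periodontal ligament that carried a ligature plus traumatic occlusion (LiTra) against periodontal ligament that carried the ligature alone (Li), to ask what the overload adds once a ligature is present. It took in the 8 libraries labelled LiTra 1 to 4 and Li 1 to 4, of 16 in the series. All mice were 9-week-old wild-type C57BL/6J males. In LiTra mice a 6-0 silk thread encircled the left upper second molar and composite resin was added to that tooth's biting surface. In Li mice only the thread was in place. The other libraries, which served for the spread and for a side-by-side comparison, came from mice with the resin alone (Tra, n = 4) and from untreated mice (Co, n = 4). RNA was enriched for poly(A) transcripts. The labels do not say that each library came from a single mouse. Every p-value here therefore weighs a difference against the spread between libraries, and part of that spread may be technical. The time between surgery and sampling is not given in the sources used here.

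The periodontal ligament is the collagen-rich tissue that ties the tooth root to the bone of its socket. A ligature gathers bacterial plaque, brings neutrophils and inflammatory cytokines into the tissue and leads to bone loss. Bone is resorbed by osteoclasts, which form when the ligand RANKL (Tnfsf11) binds its receptor RANK (Tnfrsf11a), a step that the decoy receptor osteoprotegerin (Tnfrsf11b) blocks. Bone is laid down by osteoblasts, whose most specific secreted product is osteocalcin (Bglap). Ligament cells also sense load, and mechanical stimulation is known to switch on immediate-early transcription factors within a short time.

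The libraries held 59845593 to 72301909 counts in LiTra and 61562188 to 69588348 counts in Li. Markers of the labelled tissue were present in every library: Postn, the ligament's matrix protein periostin, stood at 15480 to 26800 CPM (read counts scaled to the library total) in LiTra and at 9002 to 22720 CPM in Li. Libraries of LiTra and Li resembled each other as closely as libraries of the same group did, with a median correlation of log2 CPM across genes of 0.921 between the groups, 0.923 within LiTra and 0.922 within Li. LiTra 2, LiTra 3 and Li 2 leaned to short transcripts. Across genes, expression correlated by rank with transcript length at 0.191, 0.188 and 0.148 in these libraries, the lowest of the 8, where LiTra 1 and LiTra 4 had 0.280 and 0.314 and Li 1, Li 3 and Li 4 had 0.291, 0.313 and 0.312. The mean did not differ between the groups beyond this spread: it was 0.243 ± 0.063 in LiTra and 0.266 ± 0.080 in Li (SD, n = 4 each; two-sided exact permutation p = 0.8286, where the smallest p that 4 against 4 allows is 0.0286). Skeletal muscle RNA also varied, most of all in Li. The list score of 19 muscle genes, which averages the genes' log2 CPM after each gene was centred on all 16 libraries, was -1.30 to 1.99 in LiTra, against 4.93 in Li 2, 2.76 in Li 3 and -2.14 to -2.13 in Li 1 and Li 4. Medians of gene lists moved with single libraries: in 18 of 37 lists leaving out 1 of the 8 turned the sign of the median.

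No gene passed the test between LiTra and Li. Of 20953 genes tested, 0 (0%) had a Benjamini-Hochberg adjusted p under 0.05 in edgeR's quasi-likelihood test, and the lowest adjusted p was 0.919. At an unadjusted p under 0.05 there were 393 genes higher in LiTra (1.88% of those tested) and 341 lower (1.63%), 734 in all. Ranges of the 4 LiTra and the 4 Li libraries lay fully apart for 139 genes that were higher in LiTra (0.663%) and for 163 that were lower (0.778%). The fold changes were small where expression was high: of 11602 genes with a mean log2 CPM of at least 2, 99.16% differed less than 2-fold, and the median 95% interval reached 0.62 log2 units to either side. For most of them a smaller difference in a single gene was therefore not detectable. The intervals are not adjusted for the number of genes, so a larger difference could also fail the adjusted test. By limma-voom 0 genes were called. DESeq2 called 43 genes, 25 higher and 18 lower, of which 38 had 0 counts in at least 3 of the 8 libraries and only Inmt reached a mean log2 CPM of 2. Leaving out Li 2 kept the number of edgeR calls at 0 but took the number of genes at an unadjusted p under 0.05 to 2827.

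The differences between Tra and Co, on teeth without a ligature, had a wider spread. Whether the resin itself set that spread was not tested. Of 11850 genes with a mean log2 CPM of at least 2, 96.38% differed less than 2-fold between Tra and Co, and the SD of the log2 fold changes over these genes was 0.48, against 0.31 for LiTra over Li (this difference was not tested). The interaction, which sets LiTra over Li against Tra over Co, called 0 of 20953 genes (0%) at an adjusted p under 0.05 in edgeR, with a lowest adjusted p of 0.108. At an unadjusted p under 0.05 there were 1032 genes, and DESeq2 called 64. Across 11691 genes, which are not independent replicates, the log2 fold changes of the 2 comparisons had a Pearson r of 0.19 and the same sign in 60.3% of cases. These comparisons share no libraries.

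Osteocalcin was the member of the bone-forming genes that set the groups furthest apart. Bglap (ENSMUSG00000074483) stood at 812, 1115, 1348 and 686 CPM in LiTra 1 to 4, against 246, 431, 228 and 547 CPM in Li 1 to 4. Every LiTra library lay above every Li library. The log2 fold change was 1.45 with a 95% interval of 0.67 to 2.22, and an edgeR adjusted p of 1. Bglap2, the neighbouring osteocalcin gene, had 503, 713, 917 and 405 CPM in LiTra and 178, 373, 170 and 300 CPM in Li, with a log2 fold change of 1.31 (0.53 to 2.1). Its groups did not overlap either. The genes are near-identical copies, so reads may have been split between them and neither value stands on its own. Without LiTra 2, LiTra 3 and Li 2 the Bglap difference was 1.15, and with single LiTra or Li libraries left out it ranged from 1.26 to 1.71. Without a ligature the Bglap levels were 3232, 2141, 1716 and 1795 CPM in Tra, against 1161, 1751, 2928 and 3049 CPM in Co. Tra and Co overlapped, with a log2 fold change of 0.00 ± 0.36 (SE), and of the LiTra libraries only LiTra 3 lay above the lowest Co library. The interaction for Bglap was 1.45 ± 0.51 (SE), with an edgeR adjusted p of 0.969.

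The bases before the start of Bglap are shown because osteocalcin leads the bone-forming genes. The window spans the 250 bases upstream of the start in RefSeq on GRCm38.p6, chr3:88384467-88384716, minus strand. Capitals mark ACCACA, the core to which the osteoblast factor Runx2 is known to bind.
Bglap: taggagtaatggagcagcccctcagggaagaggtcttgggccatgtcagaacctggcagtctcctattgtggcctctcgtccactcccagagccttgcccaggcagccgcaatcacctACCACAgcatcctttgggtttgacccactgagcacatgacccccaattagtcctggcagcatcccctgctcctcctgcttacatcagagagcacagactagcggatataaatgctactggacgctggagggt
Read on both strands, with no overlapping match, the motif occurred once in this window, 132 bases before the start, and in 14.05% of 32851 promoter windows of the same length. The table held no entry for Bglap2. Runx2 itself did not differ in level beyond its error, with a log2 fold change of -0.10 (-0.54 to 0.34).

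The osteoblast list as a whole stood higher in LiTra by its score, and only with the 2 osteocalcin genes included were the groups fully apart. Of 18 tested members, 11 had a positive log2 fold change and the median was 0.15, against -0.01 over all genes (0.05 without Li 2, the lowest with 1 library left out). The score was -0.333, -0.237, -0.367 and -0.169 in LiTra 1 to 4, against -0.601, -0.684, -0.378 and -0.530 in Li 1 to 4. Every LiTra library lay above every Li library, LiTra 3 narrowly above Li 3. This was the only one of the 37 lists whose scores lay fully apart. By chance alone 4 against 4 lie fully apart, in either direction, at a share of 0.0286, which 1 list of 37 does not exceed. Summed over the list, the level did not stand higher in LiTra, at 26670 to 34240 CPM against 31100 to 36460 CPM in Li. Without Bglap and Bglap2, left out after their values were seen, 9 of 16 members were positive with a median of 0.04, and the scores of -0.446 to -0.089 in LiTra overlapped with -0.619 to -0.146 in Li. At an unadjusted p under 0.05, 2 of 18 members were higher, Bglap and Bglap2, where 1.88% of all genes were. On the lower side 1 of 18 reached it, where 1.63% of all genes did: Col1a1, the main collagen chain of bone and ligament, at -0.61 (-1.14 to -0.08). Col1a1 stood at 4255, 3617, 3153 and 5068 CPM in LiTra, against 5452, 3635, 7984 and 7460 CPM in Li, with Li 2 inside the LiTra range. Sp7, a transcription factor that osteoblasts need, had 0.24 (-0.22 to 0.70), Dlx5, another such factor, had 0.45 (-0.06 to 0.96), and Alpl, the phosphatase of mineralizing cells, had -0.13 (-0.68 to 0.41). Of 11 osteocyte genes, 9 had positive fold changes with a median of 0.49, and none reached an unadjusted p under 0.05. That median was 1.17 without Li 4, 0.25 without LiTra 4 and 0.26 without Li 2. Mepe, a matrix protein of embedded bone cells, had 66.1, 82.3, 84.4 and 143 CPM in LiTra and 96.9, 42.4, 45.6 and 58.4 CPM in Li. The groups overlapped. Dkk1, a secreted Wnt inhibitor, stood at 2.29 to 3.73 CPM in LiTra and at 0.47 to 2.57 CPM in Li (log2 fold change 1.38, -0.10 to 2.85), and Sost, the osteocyte's Wnt inhibitor sclerostin, stayed below 2 CPM in all 8 libraries.

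**Figure D1:**
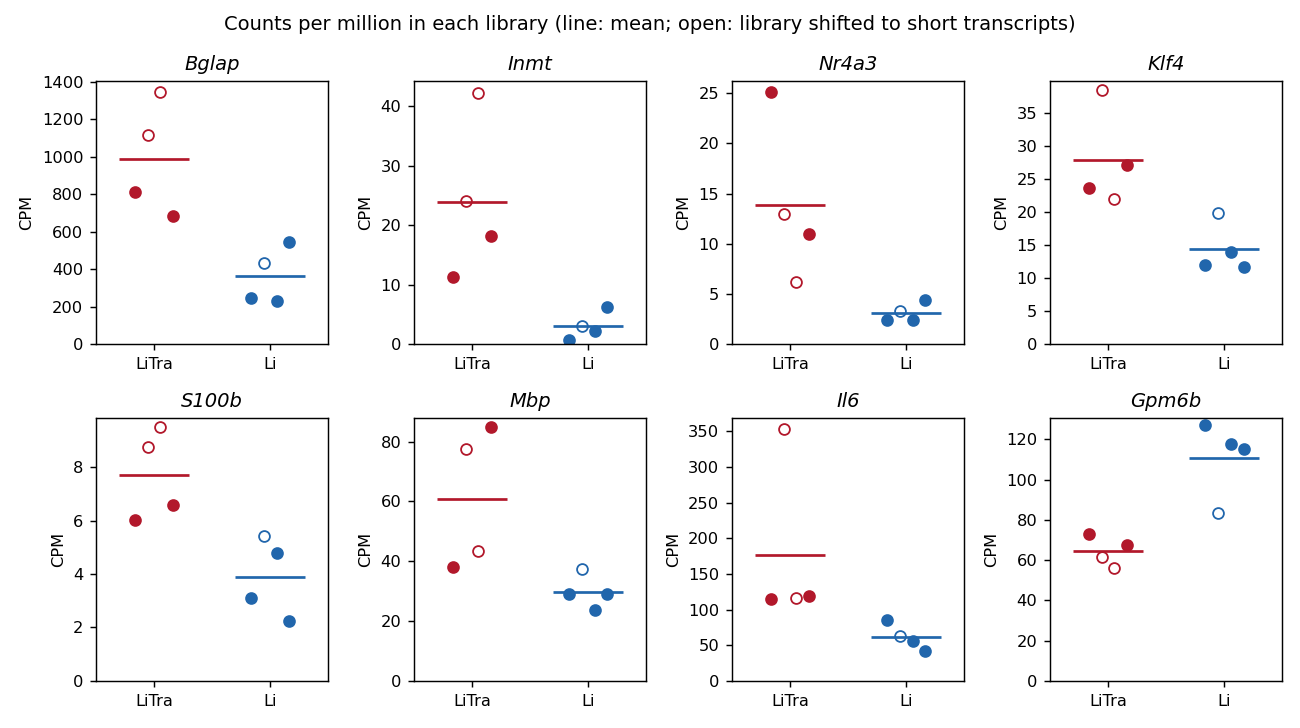
Expression of 8 genes in every LiTra (left, red) and Li (right, blue) library in CPM (scaled read counts), with a line at the group mean and open circles for LiTra 2, LiTra 3 and Li 2, which lean to short transcripts. In each panel the groups lie fully apart, for example Bglap at 686 to 1348 CPM in LiTra and 228 to 547 CPM in Li, while Il6 owes much of its LiTra mean to the 354 CPM of LiTra 2.

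Genes of bone-resorbing cells were close in the groups and mostly a little lower in LiTra. Of 17 osteoclast genes, 16 had negative log2 fold changes, with a median of -0.35, none passed the test and none reached an unadjusted p under 0.05. Ctsk, the collagen-degrading protease cathepsin K, stood at 6427, 6604, 7988 and 7736 CPM in LiTra, against 9370, 8809, 6788 and 6983 CPM in Li. Acp5, the tartrate-resistant phosphatase used to stain osteoclasts, stood at 2061, 2190, 2525 and 2582 CPM in LiTra, against 2912, 3320, 1925 and 2231 CPM in Li. Both genes overlapped between the groups. Their log2 fold changes were -0.15 for each, with 95% intervals of -0.96 to 0.66 for Ctsk and -1.07 to 0.77 for Acp5, so a difference of up to about 1 log2 unit lies within the error. Src, the kinase needed for the resorbing border, had the lowest value of the list at -0.91 (-1.85 to 0.03), with 5.84 to 12.9 CPM in LiTra and 5.21 to 21.4 CPM in Li. The only positive member was Calcr, the calcitonin receptor, at 0.80 (-0.43 to 2.03). In bulk tissue fewer cells of a type and less of a transcript per cell cannot be told apart. The list's median was -0.18 without Li 1, -0.21 without LiTra 2 and -0.23 without LiTra 2, LiTra 3 and Li 2, with 1 of 17 members again positive in the last.

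The central signals of osteoclast formation overlapped between the groups. Tnfsf11 stood at 87.8, 88.4, 103 and 82.7 CPM in LiTra, against 97.8, 81.3, 93.5 and 65.6 CPM in Li. The groups overlapped, and the log2 fold change of 0.10 had an interval of -1.42 to 1.61. That interval takes its spread from all 16 libraries, Tra and Co included. It is wide beside the range of the LiTra and Li libraries themselves. Tnfrsf11b stood at 158, 214, 121 and 413 CPM in LiTra and at 223, 129, 198 and 150 CPM in Li, with LiTra 4 above all others. Its log2 fold change was 0.37 (-0.46 to 1.20) and became -0.09 without LiTra 4. Csf1, the growth factor that osteoclast precursors require, had -0.41 (-1.0 to 0.17) and its receptor Csf1r -0.40 (-1.21 to 0.41). Ptger4, a receptor for prostaglandin E2, had 14.3 to 24.2 CPM in LiTra and 22.7 to 37.0 CPM in Li, at -0.51 (-1.06 to 0.04). Of the 20 genes of this list 13 had positive fold changes and none passed the test. Only Il6, described with the inflammatory genes, had ranges fully apart, 1 of 20 where 0.663% of all genes were higher in that way. The median was 0.27 with all libraries, 0.07 without LiTra 2 and -0.18 without LiTra 2, LiTra 3 and Li 2. Without a ligature the median of the same list was 1.03 for Tra over Co.

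**Figure D2:**
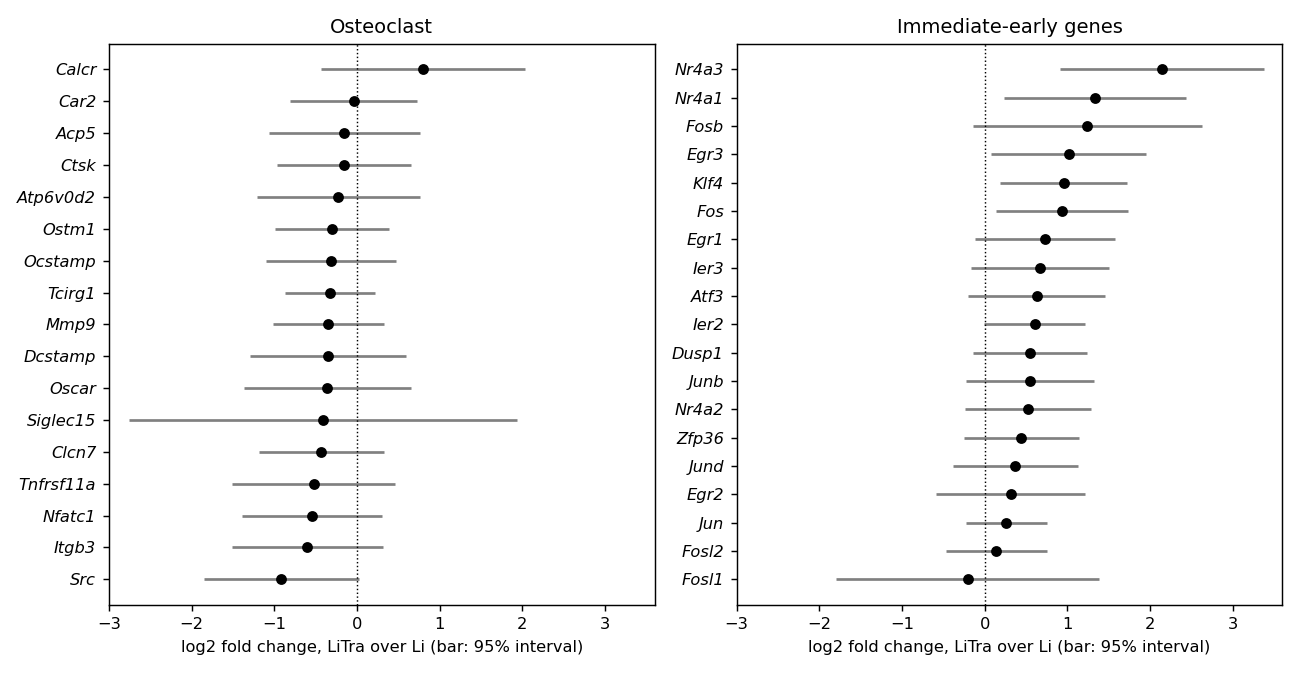
Log2 fold change of LiTra over Li (points) with its 95% interval (bars) for 17 osteoclast genes (left) and 19 immediate-early genes (right), from edgeR with all libraries. In the osteoclast panel 16 of 17 points lie below 0 with every interval crossing it, whereas 18 of 19 immediate-early points lie above 0 and 5 intervals leave it out.

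Immediate-early genes, the transcription factors and feedback regulators that cells switch on first after a stimulus, had mostly higher values in LiTra. Of 19 members 18 had a positive log2 fold change and the median was 0.60, against -0.01 over all genes. None passed the adjusted test. At an unadjusted p under 0.05, 5 of 19 were higher, where 1.88% of all genes were, and 3 of 19 had ranges fully apart, where 0.663% of all genes did. Nr4a3, an orphan nuclear receptor, stood at 25.1, 12.99, 6.24 and 10.98 CPM in LiTra, against 2.41, 3.32, 2.37 and 4.42 CPM in Li. All LiTra libraries were above all Li libraries, with LiTra 1 the highest. Its log2 fold change was 2.14 (0.91 to 3.38; edgeR adjusted p = 1), and it was 2.57 without LiTra 2, LiTra 3 and Li 2. Klf4, a zinc-finger factor, stood at 23.7, 38.4, 22.0 and 27.1 CPM in LiTra and at 11.9, 19.9, 14.0 and 11.6 CPM in Li, again with no overlap and a log2 fold change of 0.96 (0.18 to 1.73). Fosb, a partner in the AP-1 complex, had 3.65 to 7.60 CPM in LiTra and 1.43 to 3.57 CPM in Li (1.24, -0.14 to 2.62).

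The bases before the start of Nr4a3 are shown because it had the largest fold change of the immediate-early genes. The window spans 250 bases in RefSeq on GRCm38.p6, chr4:48045055-48045304, plus strand. Capitals mark TGACGT, the core of the cyclic AMP response element to which CREB family factors are known to bind.
Nr4a3: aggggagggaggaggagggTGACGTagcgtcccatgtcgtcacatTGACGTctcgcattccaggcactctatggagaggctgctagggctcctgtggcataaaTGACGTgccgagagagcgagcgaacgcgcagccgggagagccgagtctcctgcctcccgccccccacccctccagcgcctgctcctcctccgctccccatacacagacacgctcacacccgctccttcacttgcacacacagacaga
Read on both strands, 3 matches without overlap lay 231, 205 and 147 bases before the start. The motif occurred in 6.469% of 32851 windows of the same length, and 3 or more matches in 0.152% of them. The match describes the letters of this window and does not show binding in this tissue.

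Fos, Nr4a1 and Egr3 were the other immediate-early genes at an unadjusted p under 0.05. Fos stood at 158, 296, 111 and 223 CPM in LiTra, against 115, 77.6, 82.4 and 137 CPM in Li, where LiTra 3 lay inside the Li range. Nr4a1 stood at 56.0, 57.3, 17.3 and 24.6 CPM in LiTra, against 20.7, 4.49, 17.8 and 18.7 CPM in Li. Here too LiTra 3 lay within the Li range, and Li 2 was the lowest library. Egr3 stood at 13.8, 18.1, 8.31 and 13.7 CPM in LiTra and at 4.90, 3.36, 6.67 and 11.8 CPM in Li, with LiTra 3 below Li 4. The log2 fold changes were 0.93 for Fos, 1.33 for Nr4a1 and 1.01 for Egr3. The list score was 0.646, 0.895, -0.072 and 0.298 in LiTra 1 to 4, against -0.082, -0.558, -0.244 and -0.014 in Li 1 to 4, so only LiTra 3 overlapped with Li, and it lay above 3 of the 4 Li libraries. The median was 0.47 without LiTra 2, LiTra 3 and Li 2, with 16 of 19 positive, and it was 0.39 for Tra over Co. The interaction of Nr4a3 was 1.76 ± 0.80 (SE), with an edgeR adjusted p of 0.9999.

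Genes of Schwann cells, which wrap the nerve fibres of the ligament, also had mostly higher values in LiTra. Of 16 members 12 had positive fold changes with a median of 0.52, and none passed the adjusted test. At an unadjusted p under 0.05, 4 of 16 were higher, where 1.88% of all genes were, and 3 of 16 had ranges fully apart, where 0.663% of all genes did. Mbp, which compacts the myelin sheath, stood at 38.1, 77.4, 43.4 and 84.9 CPM in LiTra, against 29.0, 37.5, 23.8 and 29.2 CPM in Li. Every LiTra library was above every Li library, with LiTra 1 close to Li 2, and the log2 fold change was 1.03 (0.35 to 1.71). S100b, a calcium-binding protein of Schwann cells, had 6.03 to 9.49 CPM in LiTra and 2.25 to 5.41 CPM in Li, with no overlap. The 4 members with negative values were Ngfr (-0.05), the low-affinity neurotrophin receptor, Cdh19 (-0.03), Gfra3 (-0.13) and Erbb3 (-0.59), a neuregulin receptor. The list's median was 0.21 without LiTra 4, 0.55 without LiTra 2, LiTra 3 and Li 2, and -0.20 for Tra over Co. Summed over the list, Schwann genes stood at 329 to 563 CPM in LiTra and at 262 to 352 CPM in Li, so LiTra and Li overlapped. How much nerve each sample held was not measured other than by these genes.

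Inflammatory genes were uneven between LiTra libraries. Il6, a cytokine of the ligature response, stood at 115, 354, 117 and 119 CPM in LiTra, against 85.2, 62.3, 55.9 and 41.9 CPM in Li. The groups did not overlap, and LiTra 2 stood apart from the other 3 LiTra libraries. The log2 fold change was 1.52 (-0.61 to 3.65), and it was 0.94 without LiTra 2. Il1b, a cytokine that promotes resorption, stood at 307, 1359, 1008 and 364 CPM in LiTra, against 319, 409, 467 and 577 CPM in Li. Only LiTra 2 and LiTra 3 lay above the Li range. Its log2 fold change was 0.78 (-0.30 to 1.86) with all libraries and -0.43 without LiTra 2, LiTra 3 and Li 2. On the other side, Csf3, the growth factor that mobilizes neutrophils, stood at 84.3, 65.3, 86.8 and 44.3 CPM in LiTra, against 173, 154, 119 and 108 CPM in Li. The neutrophil-attracting chemokine Cxcl5 stood at 752, 389, 1130 and 581 CPM in LiTra, against 1615, 1146, 1216 and 1330 CPM in Li. Both lay fully below Li, at -0.98 (-2.84 to 0.88) for Csf3 and -0.90 (-2.32 to 0.53) for Cxcl5. These intervals, like that of Il6, also take in the spread within Tra and Co. Ranges lay fully apart for 2 of 25 members on the lower side, where 0.778% of all genes did. On the higher side they did for 1 of 25, Il6, where 0.663% of all genes did. Of 25 cytokine and chemokine genes 14 had positive fold changes and none passed the test. The median was 0.25 with all libraries, -0.02 without LiTra 2, 0.53 without Li 2, -0.31 without LiTra 2, LiTra 3 and Li 2, and 2.01 for Tra over Co.

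Neutrophil genes followed the same libraries. S100a8, a subunit of the antimicrobial protein calprotectin, stood at 297, 1841, 1808 and 470 CPM in LiTra, against 444, 710, 389 and 217 CPM in Li. Retnlg, a secreted neutrophil protein, stood at 26.4, 278, 129 and 28.6 CPM in LiTra, against 32.1, 78.3, 30.3 and 35.2 CPM in Li. In both, LiTra 2 and LiTra 3 lay above every Li library, and for Retnlg LiTra 1 and LiTra 4 lay below every Li library. Of 18 genes 17 had positive fold changes with a median of 0.53, which was 0.23 without LiTra 2. Without LiTra 2, LiTra 3 and Li 2 the median was -0.48 and 3 of 18 were positive. Acute-phase and antimicrobial genes turned in the same way: 12 of 15 were positive with a median of 0.31 with all libraries, and 4 of 15 with a median of -0.65 without those 3. Their median was -0.26 without LiTra 3 alone and 0.84 without Li 2 alone. Saa3, an acute-phase serum amyloid A gene, stood at 4335, 10350, 20660 and 1942 CPM in LiTra and at 5624, 15000, 3749 and 5665 CPM in Li. The groups overlapped, and the libraries that lean to short transcripts were the 3 highest of the 8. With the length trend removed by a spline the neutrophil median was 0.65, and with the length correlation as a covariate it was 0.48. In both fits 17 of 18 neutrophil genes were positive. The acute-phase median was 0.33 with the spline, with 10 of 15 positive, and -0.15 with the covariate, with 5 of 15 positive. Whether the lean caused these levels was not tested.

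Genes of granulocyte precursors, which are marrow cells, had a high list score in LiTra 1 alone among the 8 libraries. Of 12 genes 10 had positive fold changes with a median of 1.23, which was 0.22 without LiTra 1, and 1.22 over the 6 genes that a stricter count filter kept. The list score was 2.05 in LiTra 1, against -1.20 to 0.05 in the other LiTra libraries and -0.85 to 0.03 in Li. Summed over the list, LiTra 1 did not stand out, at 162 CPM. The other LiTra libraries had 72.65 to 348 CPM and Li had 108 to 234 CPM. Ngp, a granule protein of developing neutrophils, stood at 39.4, 5.63, 0.53 and 0.57 CPM in LiTra, against 2.28, 9.88, 0.60 and 5.78 CPM in Li. Elane, neutrophil elastase, had 178 and 23 counts in LiTra 1 and LiTra 2, and 0 in the remaining 6 libraries, at least 68.7-fold higher over the LiTra group against a floor of 3 counts for the Li group. Ctsg, cathepsin G, had 47 counts in LiTra 1 alone, at least 16.1-fold higher on the same floor. The median of the list was -2.74 for Tra over Co, but Co 4 alone scored 3.53. The other Co libraries scored -0.88 to 0.63 and the Tra libraries -0.87 to 0.09. Summed over the list, the level was not lower in Tra, at 235 to 1725 CPM against 110 to 558 CPM in Co.

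**Figure D3:**
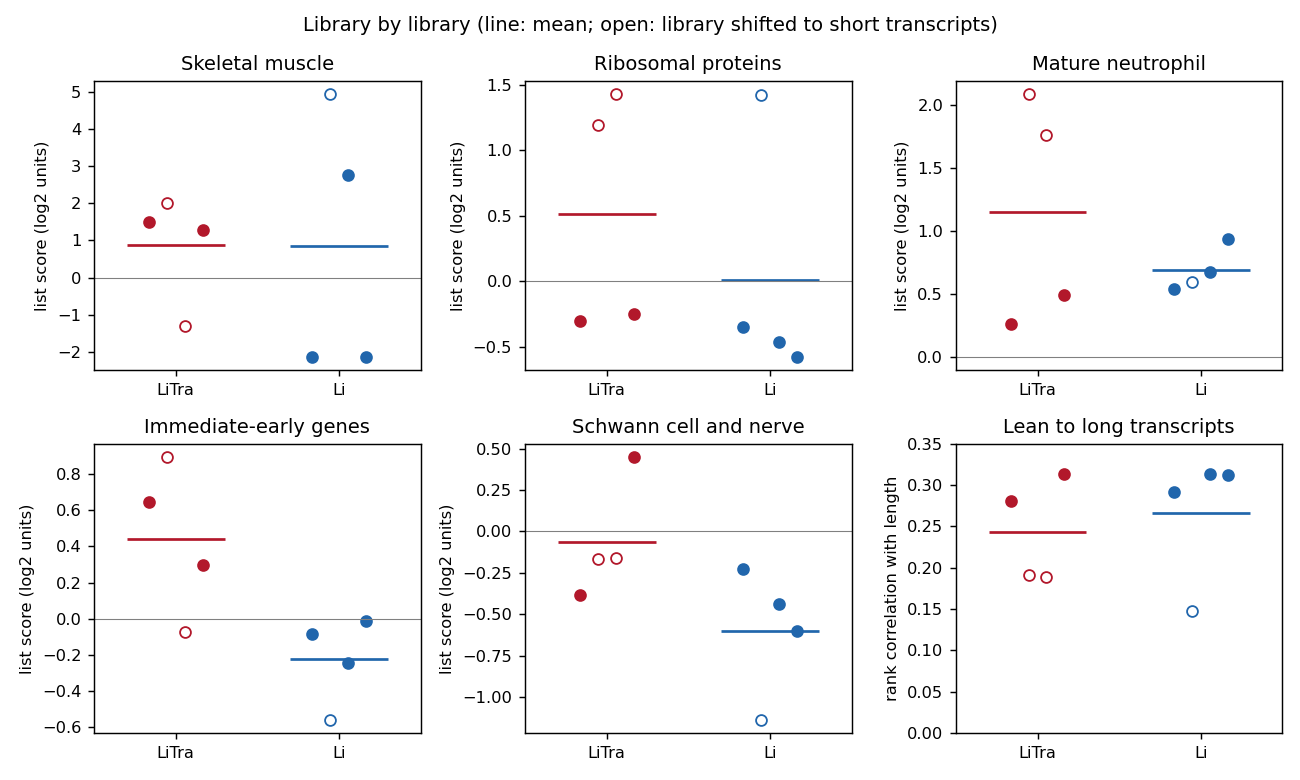
List scores in log2 units for 5 gene lists and the rank correlation of expression with transcript length (lower right) in each LiTra (left, red) and Li (right, blue) library, with a line at the group mean and open circles for LiTra 2, LiTra 3 and Li 2. Muscle is highest in Li 2 at 4.93, neutrophil genes in LiTra 2 at 2.09 and LiTra 3 at 1.76, and ribosomal protein genes in the 3 open libraries at 1.19 to 1.43, while the immediate-early scores overlap only through LiTra 3.

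Ligament genes were close between the groups. Of 21 ligament fibroblast genes 14 had positive fold changes, with a median of 0.19 (0.06 without Li 2). Scx, the tendon and ligament transcription factor scleraxis, stood at 20.3, 35.9, 23.3 and 22.8 CPM in LiTra, against 12.5, 18.3, 17.8 and 15.0 CPM in Li. Its ranges lay apart with a log2 fold change of 0.69 (0.06 to 1.31). It was 1 of 21 members with LiTra fully above Li, where 0.663% of all genes were. Postn had 0.51 (-0.44 to 1.46) and overlapped. Of 19 fibrillar and associated collagen genes 4 had positive fold changes, with a median of -0.16 (-0.02 without Li 3). Col5a3, a chain of the minor fibrillar type V collagen, had the lowest at -0.84 (-1.70 to 0.03), with 25.3 to 56.0 CPM in LiTra and 35.9 to 82.8 CPM in Li. Matrix-degrading proteases and their inhibitors had a median of 0.03, with 13 of 25 positive (-0.11 without LiTra 1). Mmp13, the main interstitial collagenase of the mouse, stood at 12200, 6912, 8175 and 14070 CPM in LiTra, against 17590, 3973, 16730 and 15040 CPM in Li. Li 2 held the lowest level and the other 3 Li libraries the highest, so the groups overlapped only through Li 2. The log2 fold change was -0.37 (-1.51 to 0.77) with all libraries and -0.66 without Li 2.

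Genes tied to load sensing and growth did not form a common shift. Targets of the mechanosensitive factors YAP and TAZ had a median of -0.02, with 12 of 24 positive (-0.14 without LiTra 4 and 0.05 without LiTra 2). Ankrd1, a muscle and stretch gene, was at 0 counts in all LiTra libraries and at 0, 102, 11 and 44 counts in Li 1 to 4. It was at least 51.0-fold lower over the group against a floor of 3 counts. The muscle score was 4.93 in Li 2 and 2.76 in Li 3, but -2.14 in Li 4, which had more Ankrd1 counts than Li 3. Whether muscle content bore on these counts was not tested. Wnt targets and regulators had a median of 0.26 with 16 of 23 positive (0.15 without LiTra 2 and 0.43 without Li 3), led after Dkk1 by Nkd1, an intracellular Wnt antagonist, at 0.68 (0.05 to 1.31). TGF-beta and BMP signals had a median of 0.08 with 15 of 24 positive (0.23 without Li 3). Hypoxia and glycolysis genes had a median of -0.22 with 4 of 20 positive (-0.07 without Li 2). Cell cycle genes lay lower: 19 of 20 were negative, with a median of -0.31, and 2 of 20 were lower at an unadjusted p under 0.05, where 1.63% of all genes were. Mcm5, a subunit of the replicative helicase, stood at 16.1, 11.02, 16.1 and 18.4 CPM in LiTra, against 26.0, 20.7, 29.5 and 19.1 CPM in Li. Rrm2, a subunit of the enzyme that makes deoxynucleotides, stood at 38.7, 24.2, 33.5 and 34.5 CPM in LiTra, against 60.5, 55.7, 48.3 and 45.2 CPM in Li. Both lay fully below Li, as 0.778% of all genes did, with log2 fold changes of -0.63 and -0.68. The list's median was -0.18 without LiTra 2, -0.25 without LiTra 2, LiTra 3 and Li 2, and 0.49 for Tra over Co.

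Beyond the lists, Inmt had the lowest unadjusted p of the genes named from all libraries. Inmt, an N-methyltransferase of indoleamines, stood at 11.3, 24.1, 42.1 and 18.2 CPM in LiTra, against 0.73, 3.01, 2.16 and 6.17 CPM in Li. Every LiTra library was above every Li library, with a log2 fold change of 2.99 (1.47 to 4.50; edgeR adjusted p = 1, DESeq2 adjusted p = 0.0068). Slc7a2, a transporter of arginine and other cationic amino acids, stood at 7.18, 4.27, 6.61 and 10.5 CPM in LiTra, against 3.34, 2.95, 3.34 and 3.89 CPM in Li, again apart, at 1.08 (0.40 to 1.75). Bri3 (0.80), Commd5 (1.04) and Bambi, a decoy receptor for TGF-beta family signals (0.96), completed the genes with the lowest p on the higher side. All 3 were nearer to 0 without LiTra 2, LiTra 3 and Li 2, at 0.45, 0.37 and 0.30.

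On the lower side, Gpm6b, a membrane glycoprotein of the proteolipid family, stood at 73.1, 61.6, 55.9 and 67.7 CPM in LiTra, against 127, 83.4, 118 and 115 CPM in Li. Its ranges lay apart, at -0.78 (-1.26 to -0.30). Susd2, a membrane protein, stood at 5.37, 3.43, 4.87 and 2.53 CPM in LiTra and at 10.2, 10.6, 5.77 and 21.7 CPM in Li, also apart, at -1.57 (-2.65 to -0.49). The remaining 8 genes of the rule ran from -1.19 to -0.64. They were Zfp322a, Nceh1 (a cholesterol ester hydrolase), Kdm5c (a histone demethylase), Slc8a1 (the sodium-calcium exchanger), Adgrl3 (an adhesion receptor), Pomk (a kinase that modifies dystroglycan sugars), Hsd17b7 (an enzyme of sterol synthesis) and Traip (a ubiquitin ligase of DNA replication). Each of the 8 overlapped between the groups. Hsd17b7 reached 16.6 CPM in LiTra 1, against 5.94 to 6.06 CPM in the other LiTra libraries and 11.5 to 26.4 CPM in Li.

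The fit without LiTra 2, LiTra 3 and Li 2, which left 2 LiTra and 3 Li libraries, called no gene by edgeR either, with 693 at an unadjusted p under 0.05. By unadjusted p it led with Exoc4, a subunit of the vesicle-tethering exocyst, which had 103 and 82.0 CPM in LiTra 1 and LiTra 4, against 51.8, 41.2 and 52.6 CPM in Li 1, Li 3 and Li 4. The omitted LiTra libraries had 39.1 and 38.3 CPM, so the difference was 0.94 in that fit and 0.50 with all libraries. Nme3, a nucleoside diphosphate kinase, stood at 7.73, 22.8, 19.4 and 5.71 CPM in LiTra, against 1.53, 22.5, 1.91 and 2.03 CPM in Li. Its 3 highest libraries were those that lean to short transcripts, and its log2 fold change was 1.89 without them and 1.0 with them. Pdlim4, which binds the actin skeleton, had 0.71 and Dmd, which encodes dystrophin, 1.22 in that fit. Sept2, a septin, had the largest negative value at -2.20, with 32.6 CPM in LiTra 1 and 231 to 306 CPM in the other LiTra libraries, against 230 to 673 CPM in Li. The others on that side were Zfp322a (-1.32), Pfkfb2, a regulator of glycolysis (-1.18), Ajuba, an adhesion and Hippo pathway protein (-1.26), and Rhbdl3, a rhomboid family member (-1.03). Slc7a2, described above, was the fifth on the higher side.

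**Figure D4:**
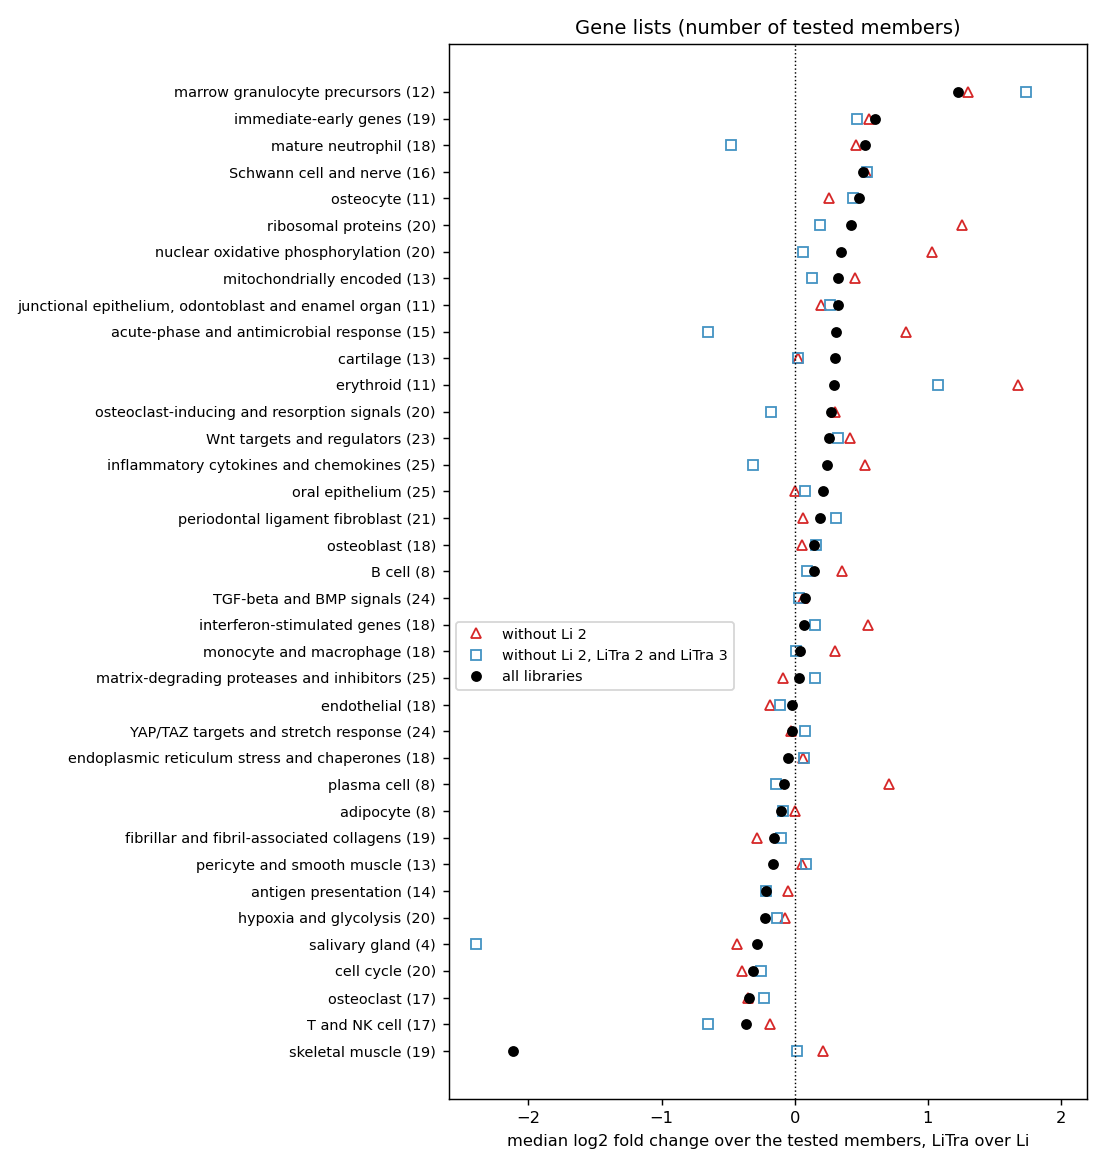
Median log2 fold change of LiTra over Li across the tested members of each of 37 gene lists (number in brackets), with all libraries (black points), without Li 2 (triangles) and without Li 2, LiTra 2 and LiTra 3 (squares). The immediate-early (0.60, 0.56 and 0.47), Schwann (0.52, 0.53 and 0.55), osteoclast (-0.35, -0.35 and -0.23) and cell cycle (-0.31, -0.39 and -0.25) medians keep their side of 0, whereas the neutrophil (0.53, 0.46 and -0.48) and skeletal muscle (-2.11, 0.21 and 0.02) medians do not.

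Lists of other cell types showed how the samples themselves differed. Skeletal muscle genes had a median of -2.11 with all libraries, 0.21 without Li 2 and 3.43 without both Li 2 and Li 3, although the mean score was 0.86 in both groups. Summed over the list, muscle genes stood at 23.0 to 218 CPM in LiTra and at 11.2 to 1662 CPM in Li. Acta1, the muscle actin, stood at 17.3, 35.5, 3.35 and 6.69 CPM in LiTra, against 30.0, 180, 62.8 and 2.53 CPM in Li. Ribosomal protein genes were positive in 20 of 20 with a median of 0.43, which was 1.26 without Li 2 and 0.19 without Li 2, LiTra 2 and LiTra 3. Nuclear genes of oxidative phosphorylation had 0.35, 1.04 and 0.07 in the same order, and mitochondrially encoded genes 0.33, 0.45 and 0.13. Without LiTra 3 alone these medians were 0.11, -0.03 and 0.29, and without LiTra 2 alone 0.26, 0.18 and 0.11. Several blood and immune lists moved most with Li 2. The erythroid median was 0.29 with all libraries, 1.68 without Li 2 and -0.34 without LiTra 3. Plasma cell genes had -0.08 with all libraries and 0.71 without Li 2, interferon-stimulated genes 0.07 and 0.55, monocyte and macrophage genes 0.04 and 0.30, and antigen presentation -0.22 and -0.05. T and NK cell genes had -0.37 with all libraries and -0.50 to -0.19 with 1 library left out, and B cell genes 0.14 and -0.27 to 0.35. Of the structural lists, oral epithelium had 0.21 with all libraries and -0.63 without LiTra 1, and the list of junctional epithelium, odontoblast and enamel organ genes had 0.32 and 0 to 1.13 with 1 library left out. Cartilage had 0.30 with all libraries and -0.07 without LiTra 4, and salivary gland genes, 4 in number, had -0.28 and -1.27 without LiTra 3. Endothelial genes had -0.02 with all libraries and -0.19 to 0.06 with 1 left out, pericyte and smooth muscle genes -0.16 and -0.43 to 0.06, adipocyte genes -0.10 and -0.15 to 0.03, and endoplasmic reticulum stress and chaperone genes -0.05 and -0.11 to 0.06. With genes at 0 in 1 group set to their bound on a floor of 3 counts, and genes at or under the floor in both left out, the median was 0.23 for oral epithelium, 0.42 for the junctional epithelium list and -0.20 for adipocyte genes. None of the members of these lists passed the test.

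The interaction asked whether trauma acted differently with and without the ligature. Its lowest p belonged to Saa3, which stood at 4335, 10350, 20660 and 1942 CPM in LiTra and 3749 to 15000 CPM in Li, but at 24.1, 140, 65.3 and 64.6 CPM in Tra, against 0.98, 0.37, 0.40 and 0.32 CPM in Co. Tra lay fully above Co while LiTra and Li overlapped. The effect of trauma was 0.31 ± 0.65 with the ligature and 7.14 ± 0.86 without it (log2, SE), and the difference of -6.83 ± 1.02 had an edgeR adjusted p of 0.108. That difference passed without LiTra 2, LiTra 3 and Li 2 (-7.80, edgeR adjusted p = 0.0315) and without LiTra 3 alone (-7.57, edgeR adjusted p = 0.0396). Il6 had 1.52 ± 1.0 with the ligature and 7.58 ± 1.39 without it, with an edgeR adjusted p of 0.732 for the difference. Mcm5, lower in LiTra than in Li, stood at 13.9, 13.8, 15.0 and 8.504 CPM in Tra, against 5.73, 6.97, 4.29 and 3.06 CPM in Co. Its interaction was -1.98 ± 0.39 (edgeR adjusted p = 0.554). Slc7a2 ran the other way, at 11.9, 8.56, 4.87 and 7.81 CPM in Tra and 12.9, 11.3, 15.0 and 21.9 CPM in Co, with an interaction of 1.96 ± 0.45 (edgeR adjusted p = 0.617).

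The other genes with the lowest interaction p were Dglucy (1.55), an enzyme of D-glutamate breakdown, Faim2 (1.82), an inhibitor of cell death, Dact1 (1.56), a Wnt pathway adaptor, and Cadps2 (1.80), a factor of vesicle release, on the positive side. On the negative side they were Bdkrb1 (-2.64), a bradykinin receptor, Ccn5 (-1.57), a matricellular protein, and Actg2 (-4.66), a smooth muscle actin. In LiTra over Li these 7 genes ran from -0.72 for Actg2 to 0.69 for Cadps2. Their edgeR adjusted p for the interaction was 0.617 for Dglucy and 0.732 for the others.

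**Figure D5:**
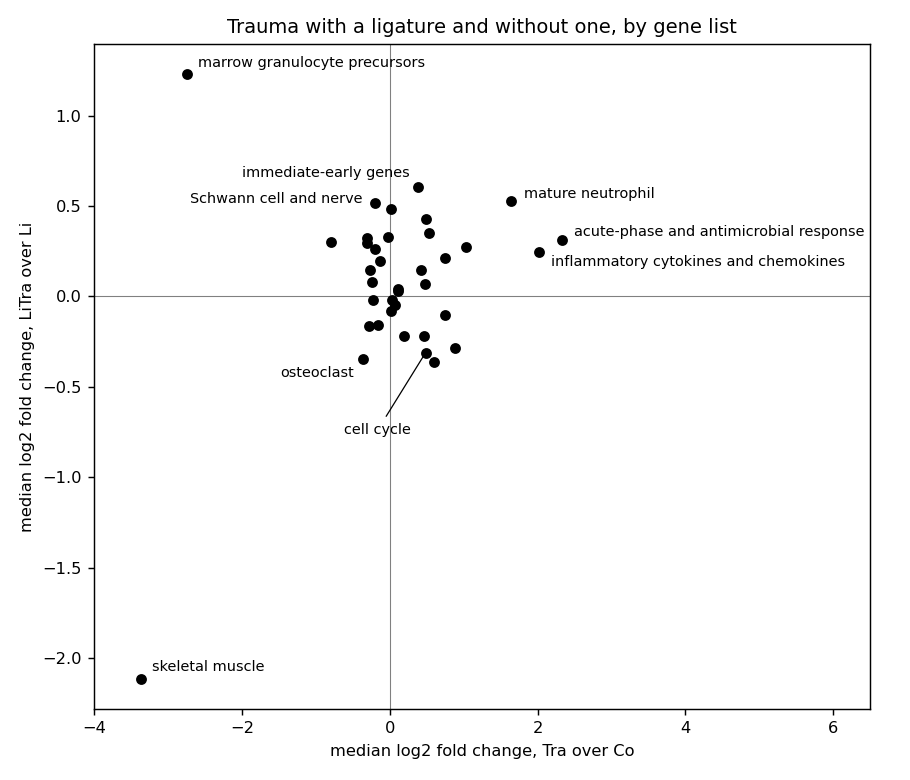
Each point is 1 of 37 gene lists, placed by the median log2 fold change of its tested members for Tra over Co (horizontal) and for LiTra over Li (vertical), which share no libraries. The acute-phase list sits at 2.32 without a ligature and 0.31 with it, the inflammatory list at 2.01 and 0.25 and the neutrophil list at 1.64 and 0.53, while the cell cycle list lies at 0.49 and -0.31.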

How the data were processed

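Poly(A) RNA sequencing of periodontal ligament gave 16 libraries in 4 groups of 4. The authors deposited raw whole-number counts per gene, not normalised, in 1 table of 55359 genes. Per the submitters' processing notes, the tools included HISAT2 2.2.1 and StringTie 2.1.7 (genome GRCm39), with Trimmomatic 0.39, FastQC 0.11.9 and DESeq2 1.32.0, and no roles are stated. How reads were counted, with which annotation and strand setting, is not given in the sources used here, so reads of overlapping or antisense genes cannot be told apart. The series title speaks of bone tissue, whereas the labels say periodontal ligament.

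Symbols and transcript lengths came from GENCODE M21 (52083 of the gene identifiers matched; counts of unnamed genes were 0.205%), and lengths covered 99.66% of tested genes. From the counts, edgeR 4.0.16 in R 4.3.3 (TMM scaling, expression filter by group with a minimum count of 10) fitted 1 coefficient per group to all 16 libraries by quasi-likelihood. The threshold was 0.05 after Benjamini-Hochberg adjustment. Intervals are 95% and, like standard errors, come from that fit, so the spread within Tra and Co enters them as well. The steps were tested on simulated data. CPM are counts relative to the scaled library total. A list's median takes all its tested members.

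Alternatives were limma-voom (limma 3.58.1) with sample weights, DESeq2 1.42.0, edgeR with size factors of DESeq2, no filter, a stricter filter (50 counts in 4 libraries), the compared groups alone, the replicate number as a block, each library left out, LiTra 2, LiTra 3 and Li 2 left out together, and a length trend removed by a spline with 5 degrees of freedom or entered as a covariate. Leaving out Li 2 and Li 3 was added after seeing the data.

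Genes were named by rule: up to 10 each way that passed, filled with the lowest unadjusted p at a mean log2 CPM of at least 2 (predicted genes and antigen-receptor segments left out), 5 each way for the fit without the 3 libraries and for the interaction, the 2 lowest p in each list shown, and a panel (Saa3, Mmp13, Sost, Bglap, Postn, Il6, Il1b, Ctsk, Acp5, Tnfrsf11b and Tnfsf11). Other list members were named after their values were seen. The comparison, its lists and its rules were chosen with earlier results of these data known. Counting error is small at this depth, and the spread between libraries sets the precision.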

Additional observations from a re-analysis of the deposited data

Results flagged for a closer look

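Of 214 groups of 4 libraries checked, 15 held 1 library that stood apart from the other 3 by Dixon's test at the 95% level, where chance gives about 1 in 20. Values are log2 CPM unless stated, and -5.07 stands for 0 counts. Where all other libraries of a group are at 0, any count is flagged. This holds for Ostn (27 counts in Li 2) and Ctsg (47 counts in LiTra 1). Li 2 stood apart for Nme3 (4.49, against 0.64 to 1.04), Retnlg (6.29, against 4.92 to 5.14), Mmp13 (11.96, against 13.88 to 14.10), Sost (-5.07, against -0.59 to 0.18) and Ostn (-0.84, against -5.07 in each other library). Li 2 also stood apart in the ribosomal protein score (1.42, against -0.58 to -0.35), the nuclear oxidative phosphorylation score (1.57, against -0.20 to 0.06) and the correlation of expression with transcript length (0.148, against 0.291 to 0.313). The part of that lean in the gene values was not tested.

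LiTra 1 stood apart for Hsd17b7 (4.05, against 2.58 to 2.61), Sept2 (5.03, against 7.85 to 8.26) and Ctsg (-0.56, against -5.07 in each other library). LiTra 2 stood apart for Il6 (8.47, against 6.84 to 6.90) and Mmp8, a collagenase of neutrophils (6.57, against 4.58 to 4.77). LiTra 3 stood apart for Sost (-2.41, against 0.55 to 0.84) and in the salivary gland score (0.51, against -1.06 to -0.98).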

How the results depend on the processing

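LiTra over Li gave 0 calls in every edgeR and voom setting, leaving out each library included (0 to 0), and 43 in DESeq2. The interaction gave 64 in DESeq2, 2 without Li 2, LiTra 2 and LiTra 3 (Saa3 and Exoc4), 1 with the length covariate (Saa3), and 0 to 2 with single libraries left out, where the 2 came without Co 2 (predicted genes) and the 1 without LiTra 3 (Saa3). The difference in length correlation kept its sign, at -0.0621 to -0.0043 with single libraries left out. Genes at an unadjusted p under 0.05 numbered 734 in edgeR, 2041 in voom, 1332 without a filter, 402 with the stricter filter, 282 with the compared groups alone and 1950 without Li 2 and Li 3. The labels state no pairing by replicate number. Deviations of same-numbered libraries correlated at 0.41, 0.55, -0.52 and 0.48, and those of differently numbered libraries at -0.74 to 0.64. These ranges overlap, so the check cannot decide whether the libraries were paired. With the replicate block 0 genes were called and 579 had an unadjusted p under 0.05.

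Of 69 named genes, 61 kept their sign in all settings run. Without Li 2, LiTra 2 and LiTra 3 the sign turned for Saa3 (-0.66), Il1b (-0.43), Ccl4 (-0.16), Retnlg (-0.23) and Casq1 (0.71). It turned for Saa3 (-0.13) and Bdkrb1 (-0.0275) with the length covariate, for Bdkrb1 (-0.0178) with the smooth offset, and for Casq1 in voom (0.52) and without Li 2 and Li 3 (1.91). With single libraries left out the range was -0.44 to 0.91 for Saa3, -0.0725 to 0.28 for Bdkrb1, -0.0072 to 0.17 for Tnfsf11, -0.0892 to 0.585 for Tnfrsf11b and -2.64 to 0.10 for Casq1. The cause was not tested. Of 37 gene lists, 15 had a median that some alternative moved by more than the SD of the list's score within groups. DESeq2 called 2 of the named genes, Inmt and Elane. Depth did not limit well-expressed genes, and genes under 1 CPM rest on few counts.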
